A study of Mus musculus with 9 samples.

Results

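The 9 genes described here encode the enzymes that make serine and asparagine, the transcription factor ATF4, and 4 proteins that carry amino acids across the plasma membrane. They were taken by symbol from a table of 46078 mouse genes: Phgdh, Psat1, Psph, Asns, Atf4, Slc7a11, Slc7a5, Slc3a2 and Slc1a5. Each symbol matched 1 row, and all 9 genes were among the 15401 that passed the filter on low counts. Total RNA was sequenced from 6 samples of MYCN-induced T cell lymphoma taken from the thymus (numbered 34, 53, 56, 70, 72 and 86) and from 3 samples of CD4+ T cells from the spleen (1, 2 and 3), all of strain C57BL/6J. No age, treatment, promoter of the MYCN driver or preparation of the CD4+ T cells is given in the labels. Tissue and group coincide, so a difference between thymus and spleen and a difference between lymphoma and CD4 cannot be told apart.

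Serine is made from the glycolytic intermediate 3-phosphoglycerate by 3 enzymes acting in turn, PHGDH, PSAT1 and PSPH, and it feeds glycine, one-carbon and phospholipid synthesis. Asparagine is made from aspartate and glutamine by ASNS. ATF4 is made mainly through increased translation of its mRNA when amino acids are short or the integrated stress response is on, and it drives many genes of amino acid synthesis and uptake, so its mRNA level is not a readout of its protein. Among the transporters, SLC7A5 and SLC7A11 are light chains that pair with the same heavy chain, SLC3A2, while SLC1A5 carries glutamine and other neutral amino acids on its own. Activated and dividing T cells are known to raise uptake of glutamine and large neutral amino acids and to need serine.

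Reads in genes numbered 11170704 to 15769679 per lymphoma and 8099960 to 10808828 per CD4 library, and levels are given as counts per 1000000 of the scaled library (CPM). CPM is not scaled to transcript length, so levels are compared between libraries for a gene and not between genes. Lymphoma 53 stood apart from the other lymphomas, with a chi-square per degree of freedom of 134 to 155 against each of them, where the other lymphoma pairs gave 20.8 to 59.6. Both groups held transcripts of other cell types. All 10 B cell markers were higher in every CD4 library than in any lymphoma. Their summed level was 1119 to 1411 CPM in CD4 and 6.21 to 12.5 CPM in lymphoma, with none of the 10 at 0 across either group. Summed over 10 genes, T cell markers stood at 2628 to 2692 CPM in CD4 and 1854 to 3534 CPM in lymphoma, and myeloid markers at 755 to 1069 CPM and 51.0 to 227 CPM. Within the T cell list, Cd4 was lower in every lymphoma than in every CD4 library (199 to 263 CPM). It stood at 62.6, 48.6 and 71.9 CPM in lymphomas 34, 70 and 72, and at 13.8, 6.04 and 9.02 CPM in 53, 56 and 86. Cd2 was also lower in every lymphoma (98.8 to 279 against 289 to 309 CPM). Thy1 was higher in every lymphoma (501 to 1535 against 378 to 462 CPM). The CD8 genes Cd8a and Cd8b1 stood at 25.6 to 31.8 and 35.9 to 44.9 CPM in CD4. They stood at 29.4 and 47.6 CPM in lymphoma 53, with at most 1.53 and 0.735 CPM in the other lymphomas. The stromal marker Dcn was higher in every lymphoma (1.71 to 7.36 CPM) than in CD4 (0 CPM). The epithelial marker Epcam was also higher in every lymphoma (7.0 to 50.7 against 1.05 to 1.93 CPM). Yet the 10 stromal and endothelial markers that include both summed to less in lymphoma (96.7 to 180 CPM) than in CD4 (216 to 235 CPM). Pecam1 of that list was lower in every lymphoma (59.3 to 81.3 against 186 to 199 CPM). NK cell markers, summed over 5 genes, stood at 137 to 150 CPM in CD4 and 316 to 803 CPM in lymphoma. Most of the lymphoma sum was the granzyme gene Gzma, higher in every lymphoma (298 to 785 against 63.3 to 73.9 CPM). Ncr1 was at 0 in all lymphomas, and Klrk1 at most 0.245 CPM (15.8 to 19.1 CPM in CD4). Eomes was at 18.0 CPM in lymphoma 53 and at most 0.291 CPM in the others (21.7 to 25.9 CPM in CD4). Klrb1c overlapped between the groups (0 to 61.2 CPM in lymphoma, 22.1 to 32.4 CPM in CD4). The part these cells have in the results below was not tested. In such bulk samples, fewer cells of a type and less RNA per cell cannot be told apart.

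Of the 9 genes, 7 were higher in lymphoma by edgeR's quasi-likelihood test (Benjamini-Hochberg adjusted p under 0.05 over all genes tested), 0 were lower and 2 did not pass. Over all genes tested, 24.7% were called higher and 21.9% lower. The 7 were Phgdh, Psat1, Psph, Asns, Slc7a5, Slc3a2 and Slc1a5, and in each of them every lymphoma lay above every CD4 library, as did 22.6% of all genes tested. The median log2 fold change was 1.21 over the 9 genes and 0.04 over all genes tested. Atf4 and Slc7a11 were the 2 genes that did not pass.

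**Figure D1:**
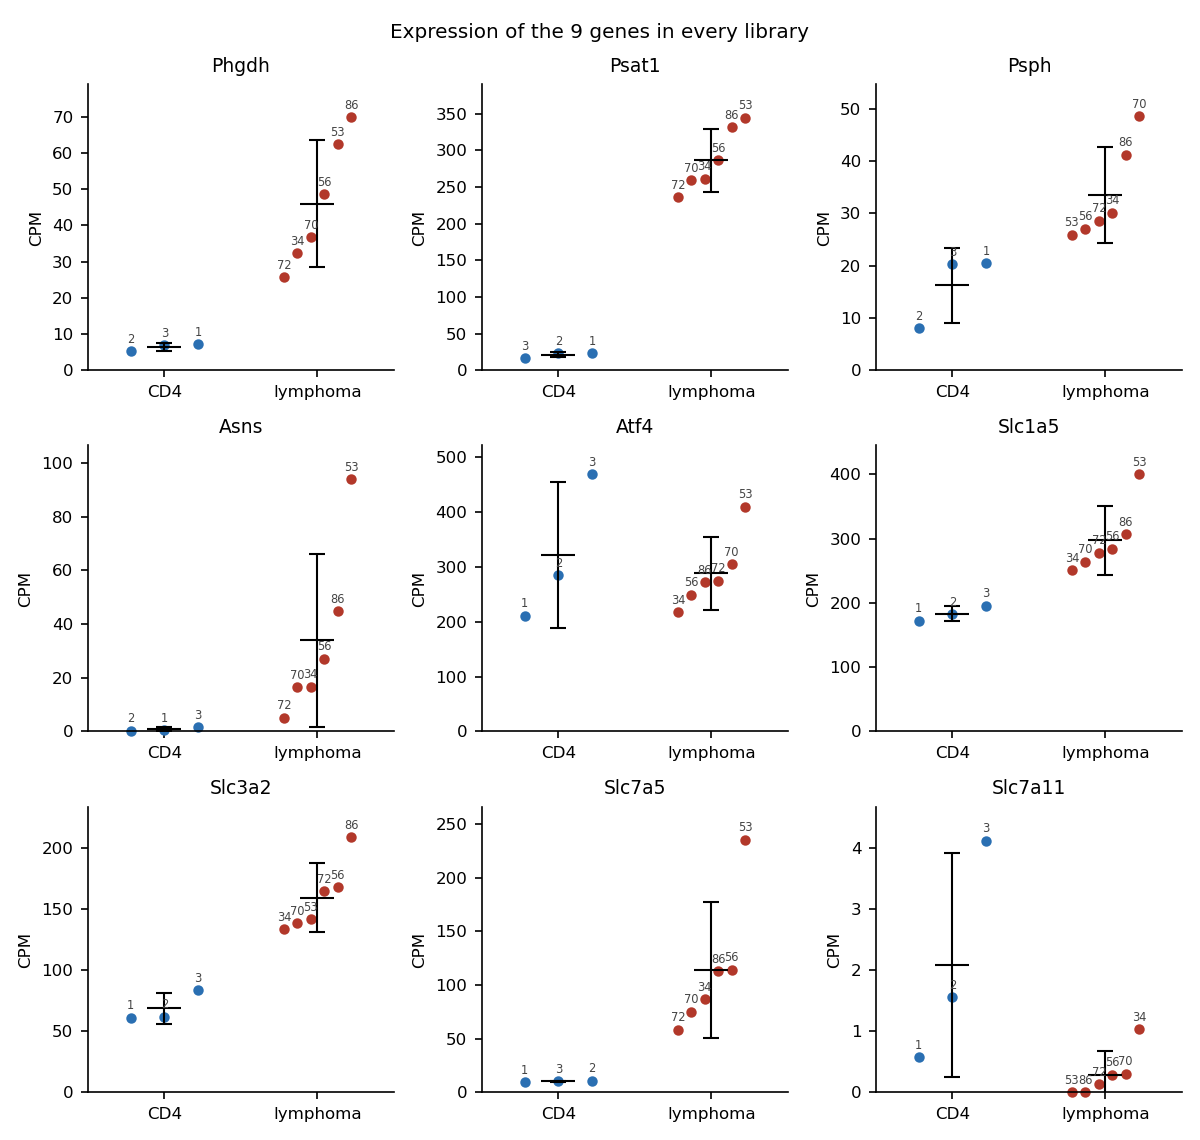
Level of each of the 9 genes in CPM (vertical axes, starting at 0) in 3 CD4 and 6 lymphoma libraries. Points are libraries labelled with their number, and horizontal bars with whiskers are the mean and SD of the group, with whiskers cut at 0. The groups lie apart for 7 genes, and they overlap for Atf4 and Slc7a11.

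The first enzymes of serine synthesis showed clear rises. Phgdh (ENSMUSG00000053398, chr3:98313170-98339990 in GRCm38, minus strand), which encodes the dehydrogenase that commits 3-phosphoglycerate to serine, had 7.16, 5.28 and 6.88 CPM in CD4 1, 2 and 3. In lymphoma it ran from 25.8 CPM in library 72 through a median of 42.7 to 69.8 CPM in library 86. The lowest lymphoma was thus well above the highest CD4 library. The means were 46.0 ± 17.4 CPM (SD, n = 6) and 6.44 ± 1.01 CPM (SD, n = 3), and the fitted change was 7.12-fold (log2 2.83, SE 0.36, edgeR adjusted p 6.12e-05).

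Psat1 (ENSMUSG00000024640, chr19:15904678-15947337, minus strand) encodes the aminotransferase of the next step. It had 23.3, 23.3 and 17.1 CPM in CD4 1, 2 and 3, and 236 CPM (library 72), a median of 274 and 344 CPM (library 53) in lymphoma. The groups were far apart and the lymphomas were alike, with the highest 1.46 times the lowest. Psat1 rose 13.5-fold (log2 3.76, SE 0.21, edgeR adjusted p 2.47e-07), and 3.64% of all genes tested had a larger log2 fold change. The SD of its log2 CPM within lymphoma was 0.21, where the median gene tested had 0.47.

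Psph (ENSMUSG00000029446, chr5:129765558-129787449, minus strand) encodes the phosphatase that releases serine. Its levels in CD4 were 20.5, 8.04 and 20.3 CPM, and in lymphoma 25.9 CPM (library 53), a median of 29.4 and 48.6 CPM (library 70). CD4 2 was the low library of its group, and the other CD4 libraries lay close under lymphoma 53. Psph rose 2.06-fold (log2 1.04, SE 0.33, edgeR adjusted p 0.0209). Without CD4 2 the change was 0.73 on the log2 scale and the call was lost (edgeR adjusted p 0.0751). In the GENCODE annotation the gene overlaps Cct6a on the opposite strand, and the strand setting of the counting is not given in the sources used here. Cct6a had 43001 counts over all libraries, and Psph had 67 to 793 per library. The effect of this overlap on Psph was not tested.

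The 3 enzymes did not move by the same factor. The log2 ratio of Psat1 to Phgdh was 1.69 ± 0.41 (SD, n = 3) in CD4 and 2.71 ± 0.35 (SD, n = 6) in lymphoma, a difference of 1.02, with no overlap between the groups. The log2 ratio of Psph to Phgdh was 1.21 ± 0.54 (SD, n = 3) in CD4 and -0.40 ± 0.65 (SD, n = 6) in lymphoma, a difference of -1.61, again with no overlap. Both differences had an exact two-sided permutation p of 0.0238, also after Benjamini-Hochberg adjustment over the 4 ratios computed, and this is the smallest p that 6 libraries against 3 allow. Relative to Phgdh, Psat1 was thus higher and Psph lower in every lymphoma than in every CD4 library.

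Asns, the asparagine synthetase gene (ENSMUSG00000029752, chr6:7675169-7693254, minus strand), was close to absent in CD4. It had 5, 2 and 18 counts in CD4 1, 2 and 3 (0.477, 0.240 and 1.65 CPM). In lymphoma it had 16.6 CPM in library 34, 93.9 in 53, 27.1 in 56, 16.5 in 70, 5.17 in 72 and 44.8 in 86. Every lymphoma exceeded every CD4 library, and lymphomas differed widely among themselves, the highest being 18.2 times the lowest. The SD of log2 CPM within lymphoma was 1.41, a value exceeded by 7.12% of genes tested.

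The fitted change of Asns was 5.36 on the log2 scale (SE 1.09, edgeR adjusted p 0.00265). It rested on few CD4 counts, and was 6.50 without CD4 3 and 4.73 without lymphoma 53 (edgeR adjusted p 0.00661 and 0.000960). With limma voom the change was 5.04 and the call was lost (adjusted p 0.0968).

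ATF4 binds DNA with C/EBP partners at composite elements whose core is TGATGNAA, and Asns and Slc7a11 are known for such elements, so the promoters were searched for these letters. RefSeq (GRCm38.p6) windows of 250 bases before the start were matched for 7 of the 9 genes, with 8 windows in all because Psat1 has 2. Slc7a5 and Slc1a5 had no entry. TGATGNAA was searched on both strands and found for 2 genes, Asns and Slc7a11, while 3.45% of all 32851 windows held it. As these 2 genes were known for it before the search, the matches are no test of enrichment. The E-box CACGTG, a sequence bound by MYC family proteins and the same on both strands, was found in none of the 8 windows and in 6.02% of all windows. At that share, 8 windows are too few to show whether it is rare near these genes. Sequence beyond the 250 bases was not searched. The Asns stretch overlaps an exon in GENCODE, and the Slc7a11 stretch overlaps none. The sequences are shown because Asns and Slc7a11 have the same core motif and lay on opposite sides of 0 in the comparison of lymphoma with CD4; capitals mark TGATGNAA on either strand, and a match is a description of the letters only.
Asns, chr6:7693214-7693243, minus strand, 34 to 5 bases before the RefSeq start: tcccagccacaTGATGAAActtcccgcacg
Slc7a11, chr3:50443629-50443698, minus strand, 85 to 16 bases before the start: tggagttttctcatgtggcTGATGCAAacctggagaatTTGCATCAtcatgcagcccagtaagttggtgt
In Asns the motif begins 23 bases before the start. Slc7a11 has it at 66 bases before the start and, on the other strand, at 47.

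Atf4 itself (ENSMUSG00000042406, chr15:80255184-80257541, plus strand) did not pass the test. CD4 1, 2 and 3 had 211, 285 and 469 CPM, and the lymphomas ran from 218 CPM (library 34) through a median of 273 to 410 CPM (library 53). The groups overlapped, and the highest of the 9 values was CD4 3. The log2 fold change was -0.16 (95% interval -0.71 to 0.39, edgeR adjusted p 0.638), so a rise or fall within that interval was not excluded. Without CD4 3 the sign turned, to 0.22 (edgeR adjusted p 0.501).

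Slc7a5 (ENSMUSG00000040010, chr8:121881150-121907694, minus strand) encodes LAT1, the light chain that brings in leucine and other large neutral amino acids. It had 9.35, 10.8 and 10.6 CPM in CD4 1, 2 and 3, a narrow range. The lymphomas had 86.8 CPM in library 34, 235 in 53, 115 in 56, 75.3 in 70, 58.4 in 72 and 113 in 86. All lay above CD4, and lymphoma 53 had more than any other. Slc7a5 rose 11.1-fold (log2 3.48, SE 0.44, edgeR adjusted p 8.43e-05), and by 3.13 on the log2 scale without lymphoma 53.

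Slc3a2 (ENSMUSG00000010095, chr19:8706882-8723369, minus strand) encodes the shared heavy chain 4F2hc, also called CD98. Its levels were 61.2, 61.9 and 83.3 CPM in CD4, and 134 CPM (library 34), a median of 153 and 209 CPM (library 86) in lymphoma. The groups were apart, with a smaller step than for its partner Slc7a5. Slc3a2 rose 2.31-fold (log2 1.21, SE 0.20, edgeR adjusted p 0.000373).

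Slc7a11 (ENSMUSG00000027737, chr3:49892526-50443614, minus strand) encodes xCT, the light chain that imports cystine in exchange for glutamate. It was barely detected, with 6, 13 and 45 counts in CD4 1, 2 and 3 (0.572, 1.56 and 4.13 CPM). Lymphomas 34, 53, 56, 70, 72 and 86 had 16, 0, 4, 5, 2 and 0 counts (at most 1.03 CPM). A count of 0 allows up to 3 counts, and lymphoma 34 lay above CD4 1, so the groups overlapped. The log2 fold change was -2.77 (95% interval -5.17 to -0.36) and did not pass (edgeR adjusted p 0.0574), although it did with DESeq2 (adjusted p 0.0432) and limma voom (0.0270). Without lymphoma 34 the gene no longer passed the filter on low counts.

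The light chains were set against their common partner in each library. The log2 ratio of Slc7a5 to Slc3a2 was -2.69, -2.50 and -2.96 in CD4 1, 2 and 3. In lymphoma it ran from -1.49 (library 72) through a median of -0.75 to 0.73 (library 53), a mean of -0.61 ± 0.74 (SD, n = 6) against -2.72 ± 0.23 (SD, n = 3). The difference of 2.10 had no overlap (exact two-sided permutation p 0.0238, and 0.0238 adjusted over the 4 ratios). The log2 ratio of Slc7a11 to Slc3a2 differed in the opposite direction, by -3.54, with -8.83 ± 1.27 (SD, n = 6) in lymphoma and -5.29 ± 1.06 (SD, n = 3) in CD4 and the same exact p values. The latter ratio rests on the low counts of Slc7a11, with 0 in lymphomas 53 and 86, and its size is set in part by the prior count of 2 added before the logarithm. With a prior count of 0.5 the difference was -4.37, with the same sign, so its size cannot be read here. The groups lay closest at lymphoma 34 (-6.81, 16 counts of Slc7a11) and CD4 1 (-6.40, 6 counts). Their separation thus rests on few counts. Part of the difference is the rise of Slc3a2 itself (log2 1.21).

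**Figure D2:**
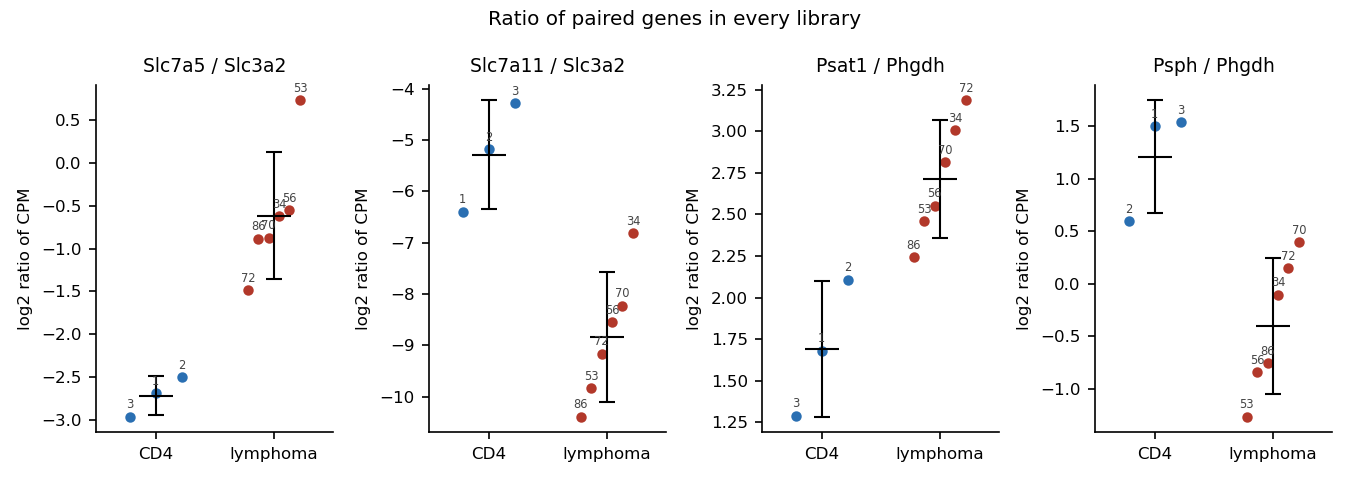
Log2 ratio of CPM of 4 gene pairs (vertical axes, not starting at 0) in 3 CD4 and 6 lymphoma libraries, with points for libraries and bars for mean and SD. Slc7a5 to Slc3a2 and Psat1 to Phgdh are higher in every lymphoma, and Slc7a11 to Slc3a2 and Psph to Phgdh lower.

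Slc1a5 (ENSMUSG00000001918, chr7:16781340-16798274, plus strand) encodes ASCT2, the sodium-coupled glutamine carrier. It was at 172, 182 and 196 CPM in CD4, and at 251 CPM (library 34), a median of 281 and 400 CPM (library 53) in lymphoma. The groups lay apart by a small step. Slc1a5 rose 1.62-fold (log2 0.70, SE 0.17, edgeR adjusted p 0.00580), which was the one rise of the 7 that stayed under 2-fold.

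**Figure D3:**
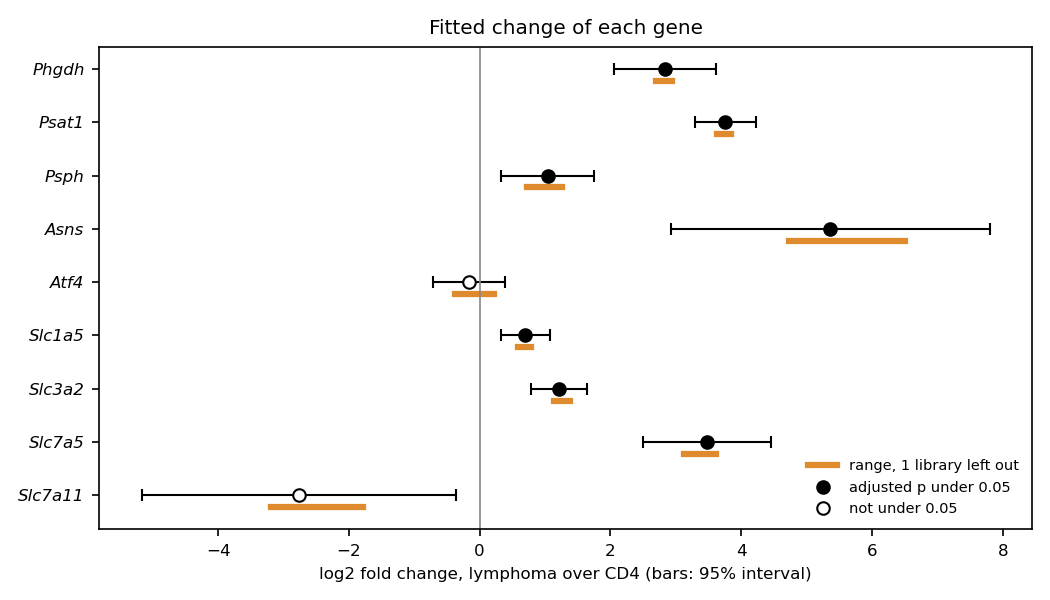
Log2 fold change of each gene, lymphoma over CD4 (horizontal axis), with its 95% interval as whiskers. Filled points passed the adjusted p of 0.05, and orange bars give the range of fits that left out 1 library each, which crosses 0 for Atf4 only.

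Among the lymphomas the genes had their extremes in a few libraries. Lymphoma 53 was the highest of the 6 for Psat1, Asns, Atf4, Slc7a5 and Slc1a5 and the lowest for Psph. Lymphoma 72 was the lowest for Phgdh, Psat1, Asns and Slc7a5. Lymphoma 86 was the highest for Phgdh and Slc3a2, and lymphoma 34 the lowest for Atf4, Slc3a2 and Slc1a5. The same libraries held these extremes with scaling to library size alone. Without lymphoma 53 the number of genes called was 7 as before.

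For each gene the most similar of 9416 other genes was taken by the root mean square difference of log2 CPM, each gene centred on its own mean over the 9 libraries. For Slc7a5 it was Slc19a1, the reduced folate carrier (difference 0.25, where the median candidate gave 1.63). For Psat1 it was Cdca8, a chromosomal passenger protein of dividing cells (0.18, median 1.75). Phgdh was nearest to Ppa1 (0.18), Psph to Fam58b (0.22), Slc3a2 to Spr (0.10), Slc1a5 to Bcas2 (0.087) and Atf4 to Bud31 (0.13). Asns had no close match, since its nearest gene Akap1 differed by 0.77 log2 units, and Slc7a11 lay 0.63 from Acvr2a. These are descriptions over 9 libraries of 2 groups.

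Other genes of the pathways were taken from lists that were chosen with earlier results of these data known. Of 24 genes that use serine and glycine, 17 were tested, and 9 were higher (52.9%, against 24.7% of all genes tested) and 0 lower (against 21.9%), with a median log2 fold change of 1.35 against 0.04 for all genes tested. Without lymphoma 53, 10 were higher and 2 lower, the latter being Sfxn3 (log2 -0.50) and Amt (-1.87), both named after their values were seen. The largest rises were in Shmt1 and Shmt2, the cytosolic and mitochondrial enzymes that split serine into glycine and a one-carbon unit, and in Mthfd1l, a mitochondrial enzyme of folate metabolism. Shmt1 had 7.06, 6.36 and 6.61 CPM in CD4 and 30.6 to 116 CPM in lymphoma (log2 3.13, SE 0.44, edgeR adjusted p 0.000149). Shmt2 had 35.6, 28.2 and 22.9 CPM in CD4 and 141 to 380 CPM in lymphoma (log2 2.89, SE 0.36). Mthfd1l had 24.8, 28.7 and 25.4 CPM in CD4 and 145 to 230 CPM in lymphoma (log2 2.78, SE 0.21). None of the 3 overlapped between the groups.

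Of 46 other amino acid transporters, 22 were tested, 8 were higher, 3 lower and 11 did not pass (median 0.91). These are 36.4% and 13.6% of the genes tested, where all genes tested had 24.7% and 21.9%. Slc1a4, a carrier of serine, alanine and cysteine related to Slc1a5, rose by 4.71 on the log2 scale (SE 0.77, edgeR adjusted p 0.000428), from at most 0.572 CPM in CD4 to 3.80 to 11.3 CPM in lymphoma. The change was 5.58 without CD4 1 and 4.11 without CD4 3. Slc43a1, a facilitative carrier of large neutral amino acids (LAT3), rose by 4.44 (SE 0.51), from 0.763 to 2.16 CPM in CD4 to 15.2 to 51.0 CPM in lymphoma.

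Slc1a6, a glutamate transporter known from cerebellar neurons, split the lymphomas. Libraries 34, 70 and 72 had 43.0, 47.8 and 60.5 CPM, whereas 53, 56 and 86 had 0.274, 1.82 and 0.361 CPM, and CD4 had 0, 2 and 0 counts. The T cell receptor segment Trbv12-1 was the most counted Trbv segment in these same libraries 34, 70 and 72 (66, 45 and 47 counts), and whether they are separate tumours is not given in the labels. Against the floor of 3 counts per library, the lymphoma mean was at least 71.3-fold higher, a bound that does not describe lymphomas 53, 56 and 86. The call (edgeR adjusted p 0.0335) was lost without any 1 of the 3 CD4 libraries (adjusted p 0.0952, 0.0970 and 0.103).

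The 3 transporters that fell were Slc1a3, a glutamate carrier (log2 -2.46, SE 0.69), Slc38a6 (-1.40, SE 0.29) and Slc38a9, the lysosomal arginine sensor (-0.68, SE 0.25). Slc38a9 overlapped between the groups, with 22.7 to 48.6 CPM in lymphoma and 48.2 to 61.9 CPM in CD4. Its call was lost in 6 of the 9 fits that left out 1 library (without lymphoma 34, 56 or 86 or any CD4 library), with changes of -0.55 to -0.76, and that of Slc1a3 was lost without CD4 2 (-2.04, edgeR adjusted p 0.0695).

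**Figure D4:**
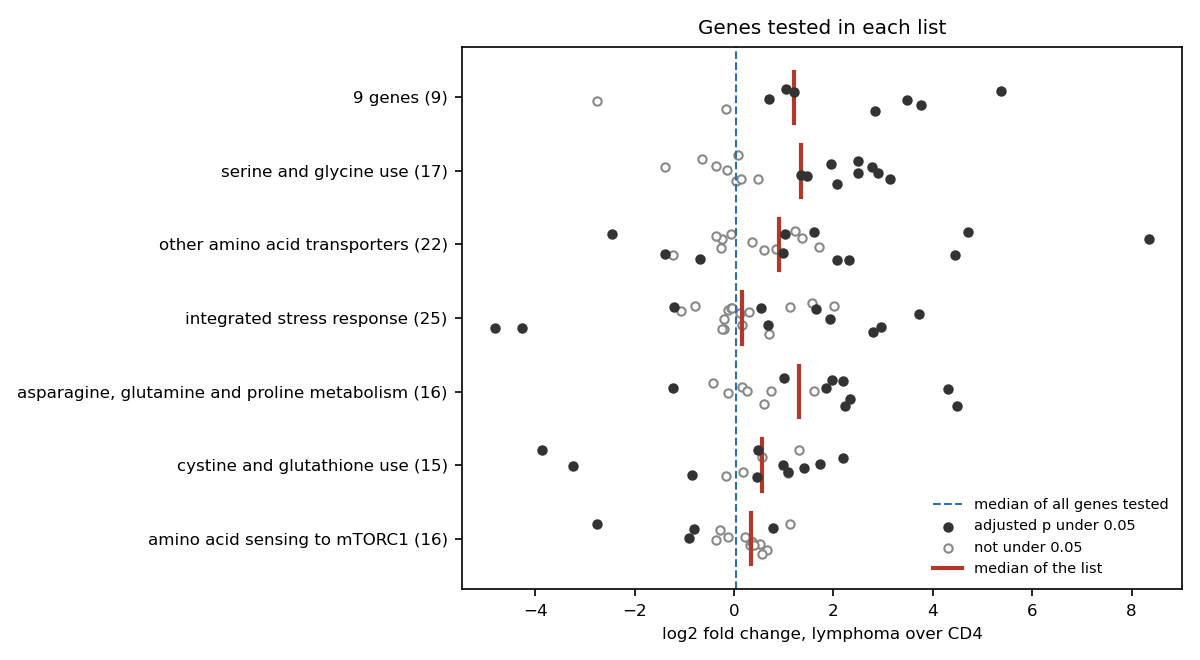
Log2 fold change, lymphoma over CD4 (horizontal axis), of the genes tested in each list, with the number tested in brackets. Filled points passed the adjusted p of 0.05, red bars are list medians, and the dashed line is the median of all genes tested (0.04). The medians run from 0.16 for the integrated stress response to 1.35 for serine and glycine use.

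Genes of the integrated stress response, the pathway upstream and downstream of ATF4, did not move one way. Of 27 listed, 25 were tested, 7 were higher, 3 lower and 15 did not pass, with a median log2 fold change of 0.16. The share called higher, 28%, was near the 24.7% of all genes tested, and the share called lower was 12% against 21.9%. The largest rises were Stc2, a secreted glycoprotein (log2 3.73, SE 0.61), Eif4ebp1, an inhibitor of cap-dependent translation (2.97, SE 0.52), and Atf5, a relative of ATF4 (2.79, SE 0.59). Each was higher in every lymphoma than in every CD4 library, and without CD4 1 the changes were 4.65, 3.97 and 3.62.

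The 3 genes that fell were Atf3 and Ddit3, which encode stress-induced transcription factors (DDIT3 is also called CHOP), and Ppp1r15a, which encodes the phosphatase subunit GADD34. Ppp1r15a had 45.8, 70.9 and 269 CPM in CD4 1, 2 and 3 and 4.37 to 9.53 CPM in lymphoma (log2 -4.27, SE 0.48, edgeR adjusted p 5.12e-05). Atf3 had 3.72, 3.48 and 62.4 CPM in CD4 and at most 2.04 CPM in lymphoma. Ddit3 had 32.3, 37.2 and 52.6 CPM in CD4 and 10.2 to 28.2 CPM in lymphoma. CD4 3 was thus the highest library for all 3, as it was for Atf4 and Slc7a11, and the fits were repeated without it. There the change of Ppp1r15a was -3.11 (edgeR adjusted p 4.57e-05), while Atf3 went from -4.81 to -2.10 and lost its call (adjusted p 0.0639), and Ddit3 went from -1.20 to -0.96 and lost its call (adjusted p 0.0515).

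**Figure D5:**
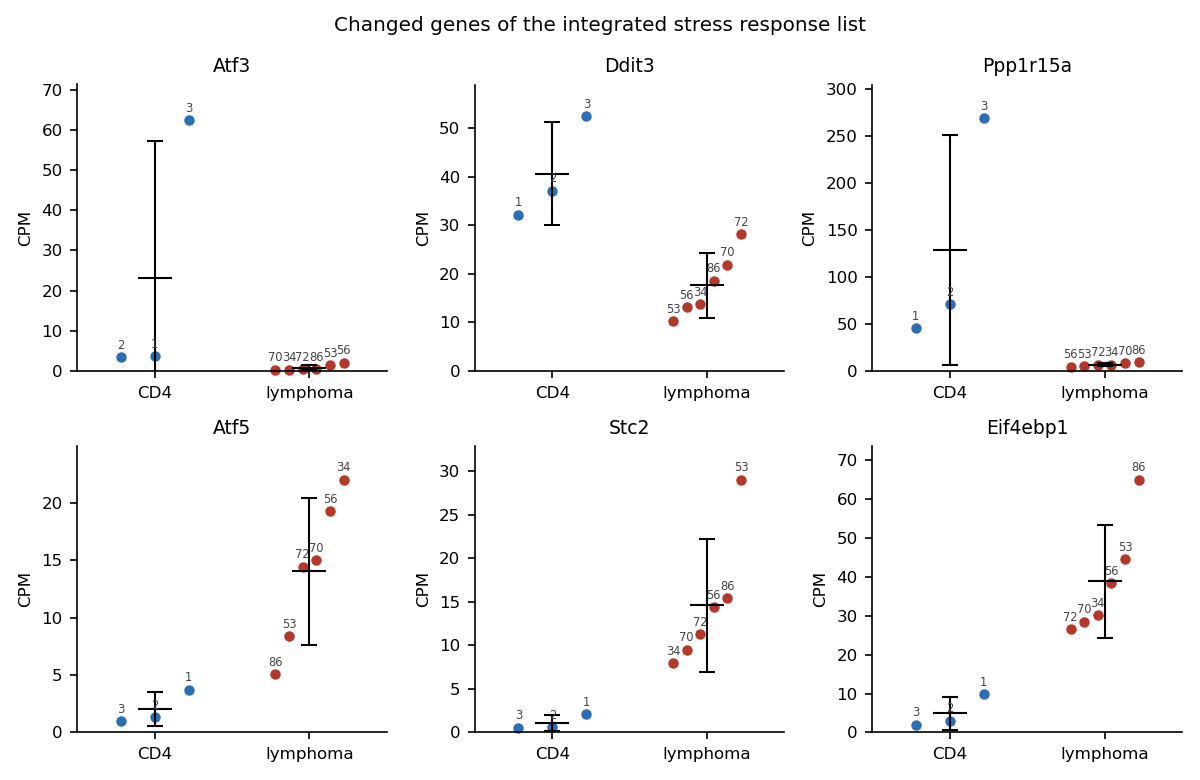
Level in CPM (vertical axes, starting at 0) of the 3 largest falls and the 3 largest rises of the integrated stress response list, in 3 CD4 and 6 lymphoma libraries, with mean and SD per group and whiskers cut at 0. CD4 3 is the highest library for Atf3, Ddit3 and Ppp1r15a, and all lymphomas are above all CD4 libraries for Atf5, Stc2 and Eif4ebp1.

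Around asparagine, glutamine and proline, 16 of 18 listed genes were tested, 8 were higher and 1 lower (median 1.31), where 24.7% and 21.9% of all genes tested were called. Bcat1, the cytosolic branched-chain aminotransferase, had 3.34, 1.44 and 1.19 CPM in CD4 and 22.5 to 65.9 CPM in lymphoma (log2 4.48, SE 0.50, and 5.10 without CD4 1). Pycr1, which completes proline synthesis, rose by 4.30 (SE 0.51). Glul, which makes glutamine from glutamate, was lower (log2 -1.22, SE 0.41, edgeR adjusted p 0.0288), with CD4 2 at 45.0 CPM and lymphoma 53 at 45.0 CPM, and its call was lost without CD4 1 or CD4 3 (adjusted p 0.102 and 0.0771).

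Cystine taken up through xCT is used for glutathione and, with thioredoxin, for redox balance. Of 16 such genes, 15 were tested, 7 were higher (46.7%, against 24.7% of all genes tested) and 3 lower (20%, against 21.9%), with a median of 0.56. With upper quartile scaling, 4 of the 15 were higher and 3 lower. Txn1 (log2 2.19, SE 0.23), Txnrd1 (1.73, SE 0.18) and Gclm, the regulatory subunit of the first enzyme of glutathione synthesis (1.41, SE 0.28), rose most. The extracellular glutathione hydrolases Ggt5 (-3.86, SE 0.87) and Ggt1 (-3.24, SE 0.55) fell, as did Gss (-0.86, SE 0.30), which makes glutathione in its last step. Ggt5 differed widely among lymphomas, with 6.25, 6.80 and 4.97 CPM in 34, 70 and 72. It had 0.457, 0.0728 and 1.16 CPM in 53, 56 and 86, and 40.4 to 58.0 CPM in CD4. Gss overlapped between the groups, and it kept its call in 1 of the 9 fits with a library removed, the one without lymphoma 53; in the other 8 the change was -0.71 to -0.94. Without CD4 2 the number of genes called in this list was 5 in place of 10.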

How the data were processed

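The authors' deposited table holds raw read counts per Ensembl gene for 9 libraries. FastQC, HISAT2, SAMtools and HTSeq and the builds mm10 and GRCm38 are named in the submitters' processing notes, without versions, and the strand setting and annotation are not given in the sources used here. All columns matched a sample. The 5 summary rows were left out, and genes held 27.8 to 49.1% of reads per library. HTSeq lists reads with several alignments in a summary row, so transcripts with a near-identical copy elsewhere can be underestimated.

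Counts were tested on the whole table with edgeR 4.0.16 (R 4.3.3): filterByExpr with a minimum count of 10, TMM scaling, glmQLFit (robust) and glmQLFTest, 6 lymphoma against 3 CD4 libraries, no covariate, Benjamini-Hochberg adjustment over 15401 genes and a threshold of 0.05. SE is the absolute log2 fold change over the square root of F, and 95% intervals use its t distribution. Log2 CPM used a prior count of 2. Ratios were compared by exact permutation of the 84 assignments of libraries (scipy 1.17.1). A count of 3 is the floor that a count of 0 allows, and covers counting error only. The scripts were tested on simulated data. DESeq2 1.42.0 and limma 3.58.1 were alternatives.

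The members, the lists and the markers were chosen with earlier results of these data known. Named are the 9 genes, up to 3 largest rises and falls past the threshold in each list, and the tested gene most like each of the 9 (average log2 CPM of at least 3). A gene that this rule names is not reported here. Replicates differed by more than counting noise. The labels do not say that they came from separate animals, so p-values measure only the spread between these samples. Gene coordinates are from GENCODE M21 (GRCm38).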

Additional observations from a re-analysis of the deposited data

Results flagged for a closer look

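In 49 results the 6 lymphomas were searched for 1 library lying far from the rest, by Dixon's ratio of the end gap to the range at the 95% level. Such a library was found in 7. For normally distributed values chance gives about 1 in 20, or 2.45, and whether these values are so distributed was not tested. The 49 results share the same 6 libraries, so the 7 are not independent of each other. Of the 7, 5 concern lymphoma 53. Its Slc7a5 was at 235 CPM with the others at 58.4 to 115, and its Slc1a5 at 400.3 CPM with the others at 251 to 307. It also had 29.0 CPM of Stc2 (others 7.93 to 15.5) and 1.74 CPM of Ggt1 (others 0.437 to 0.612). Its T cell markers summed to 3534 CPM (others 1854 to 2295), most of the excess being Thy1 at 1535 CPM (others 501 to 611). It also had 29.4 CPM of Cd8a and 47.6 CPM of Cd8b1, where the others had at most 1.53 and 0.735, and 13.8 CPM of Cd4. Slc7a11 was at 1.03 CPM in lymphoma 34 and at most 0.306 in the others. Erythroid markers summed to 889 CPM in lymphoma 86 and 12.2 to 217 CPM in the others, and their part in the results was not tested.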

How the results depend on the processing

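The number of the 9 genes called was 6 to 8 over 21 alternatives, and 6 to 7 when 1 library was left out. Phgdh, Psat1, Slc7a5 and Slc3a2 kept their direction and their call in all 21. Over these, the log2 change of Psat1 was 3.57 to 3.87 and that of Phgdh 2.70 to 3.06. Upper quartile scaling moved the median of all genes tested by -0.10. Atf4 was -0.38 without CD4 1, and turned to 0.22 without CD4 3 and to 0.10 without lymphoma 53 and CD4 3 together, the latter chosen after seeing the data. Slc7a11 could be tested in 18 alternatives and Asns in 20. Psph also missed an adjusted p of 0.01. Called genes numbered 7 in place of 11 among other transporters with at least 10 counts in every library, a filter that left 11 of the 22 to be tested. In the cystine list they were 5 in place of 10 at an adjusted p under 0.01 and 6 with a 2-fold rule, which also left 1 of 4 in the mTORC1 list; both rules are stricter by construction. Leaving out 1 library gave 8 to 12 genes for serine and glycine use, 8 to 14 for other transporters, 8 to 10 for the stress response, 7 to 10 for asparagine and glutamine, 5 to 11 for cystine and 4 to 5 for mTORC1.

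The ratio differences kept their sign throughout. Leaving out 1 library gave 1.83 to 2.28 for Slc7a5 to Slc3a2, -4.10 to -3.04 for Slc7a11 to Slc3a2, 0.82 to 1.22 for Psat1 to Phgdh and -1.92 to -1.44 for Psph to Phgdh. A prior count of 0.5 moved Slc7a11 to Slc3a2 beyond that range, to -4.37. With lymphomas 34, 70 and 72, which have Trbv12-1 as their most counted Trbv segment, averaged to 1 library they were 2.30, -3.88, 0.87 and -1.88. Neither 6 against 2 nor 4 against 3 libraries can pass, the smallest exact p being 0.0714 and 0.0571. No paired analysis was possible because the groups share no replicate numbers.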

Other observations

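Leucine brought in by LAT1 acts on mTORC1 through a set of sensors and small GTPases. All 16 listed genes were tested, 1 was higher, 3 were lower and 12 did not pass, with a median log2 fold change of 0.33 against 0.04 over all genes tested. The share called higher was 6.2% against 24.7% of all genes tested, and the share called lower, 18.8%, was near the 21.9% of all genes tested. Mtor, the kinase itself, had 26.7, 25.3 and 22.7 CPM in CD4 and 32.9 to 48.5 CPM in lymphoma (log2 0.79, SE 0.18, edgeR adjusted p 0.00320). Sesn3, Sesn1 and Nprl2 were the 3 lower genes. Sesn3 had 63.5, 62.4 and 74.2 CPM in CD4 and 4.53 to 24.8 CPM in lymphoma (log2 -2.76, SE 0.51), with lymphoma 53 the highest of its group. Sesn1, which like Sesn3 encodes a sestrin, changed by -0.91 (SE 0.17), from 88.8 to 116 CPM in CD4 to 44.9 to 65.1 CPM in lymphoma. Nprl2, a GATOR1 subunit, changed by -0.80 (SE 0.23) with overlapping groups, and its call was lost without CD4 1 or CD4 2 (edgeR adjusted p 0.0587 and 0.0708).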
